A study of Bos taurus with 4 samples.

Results

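The nuclear-encoded subunits of the respiratory chain and of ATP synthase were taken as 1 group of genes. Members were the bovine genes whose symbols carry the stems of complex I (*nduf* with A, B, C, S or V and a number), complex II (*sdha* to *sdhd*), complex III (*uqcr* and *cyc1*), cytochrome c (*cycs*), complex IV (*cox4i* and *cox5* to *cox8*) or complex V (*atp5*), and the assembly factors named *ndufaf* were left out. The reference names held 89 such symbols, and 81 of them had at least 1 probe, 170 probes in all out of 43653 on the array and 81 genes out of 11054 named genes. The 8 symbols with no probe under that name were *cox5a*, *cox6c*, *cox7b2*, *cox7c*, *cox8c*, *ndufs8*, *uqcrc2* and the pseudogene *cox7alp1*. The measured genes made up 35 subunits of complex I, 4 of complex II, 8 of complex III, 13 of complex IV, 17 of complex V, cytochrome c, and 3 genes kept apart because their products are not ordinary subunits (*ndufa4l2*, *cox7a2l* and *atp5if1*). All 81 genes and 170 probes passed the filter on dim probes, were well above background in both channels on all 4 arrays, and had no saturated spot.

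RNA came from the central part of the semitendinosus, a hindlimb muscle, of 15-month-old bulls of the beef breed Hereford (HER) and of the dairy breed Holstein-Friesian (HF), the reference breed, with 4 bulls per breed and no treatment named for either. Each of 4 two-colour Agilent arrays carried 1 HER bull and 1 HF bull, so that a value is the log2 ratio of the Cy5 over the Cy3 signal on 1 array, and all arrays lay on 1 slide. The dye labels put HER in Cy3 and HF in Cy5, by which a positive value is higher in HF. The description of each array mentions a dye swap, however, and the study's own tables run the opposite way, so that the breed direction is not settled, values are given as higher or lower in Cy5, and a dye effect and the breed cannot be told apart with 1 dye orientation. The median signal per array was 129 to 160.5 in Cy5 and 77 to 138 in Cy3 over a background of 37 to 41, and the number of arrays limits the precision.

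Muscle makes most of its ATP for sustained work by oxidative phosphorylation. Complex I takes electrons from NADH and complex II from succinate, both pass them to ubiquinone, complex III hands them on to cytochrome c, and complex IV gives them to oxygen. Complexes I, III and IV pump protons across the inner mitochondrial membrane, and complex V lets them flow back to make ATP. Complexes I, III, IV and V also hold subunits encoded by mitochondrial DNA, and none of the 26 symbols listed for them, which give each gene under a pair of spellings, was matched to a probe, so they were not analysed here.

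Of the 81 subunit genes, limma called 1 at an adjusted p under 0.05, the complex I gene *ndufc1*, against 4.46% of the 9425 named genes tested. That is 1.23% of the members, each gene taken at its brightest probe. It was lower in Cy5, where the share over all genes in that direction was 1.54%, and 0 members were called higher against 2.92%. At an unadjusted p under 0.05 limma passed 9 members higher (17.0% of all genes) and 12 lower (11.3% of all genes), together 25.9% of the members against 28.3%, and the other tests called 7 members (separate-channel fit, 3 higher and 4 lower, against 12.1% of all genes) and 0 members (the methods' t-test, which called 0 of all 9425 genes). The methods' t-test at the thresholds named there, an unadjusted p of at most 0.05 and at least a 1.3-fold change, passed 7 members (2 higher and 5 lower) and 11.3% of all genes. With limma's p in its place, the same thresholds passed 10 members, or 12.3%, against 17.8% of all genes. *Cox5b* and *sdhb* were the 2 higher in Cy5 (10.6% of all genes), and *ndufc1*, *ndufb5*, *ndufc2*, *uqcrfs1*, *cox7a2*, *cox7b*, *atp5f1e* and *cycs* were the 8 lower (7.18%). The log2 ratios of the members ran from -0.60 (*ndufc1*) to 0.51 (*cox5b*) around a median of -0.04, with 35 above 0 and 46 below it. Of the 9425 named genes 5119 were above 0 and 4306 below it. The members' median size was 0.14 and their median SD over the arrays 0.230, against a median size of 0.17 and the same median SD over all named genes. Of the members 21 had 1 sign on all 4 arrays (8 above 0 and 13 below it), or 25.9%, against 34.2% of all genes (20.4% above 0 and 13.8% below it).

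**Figure D1:**
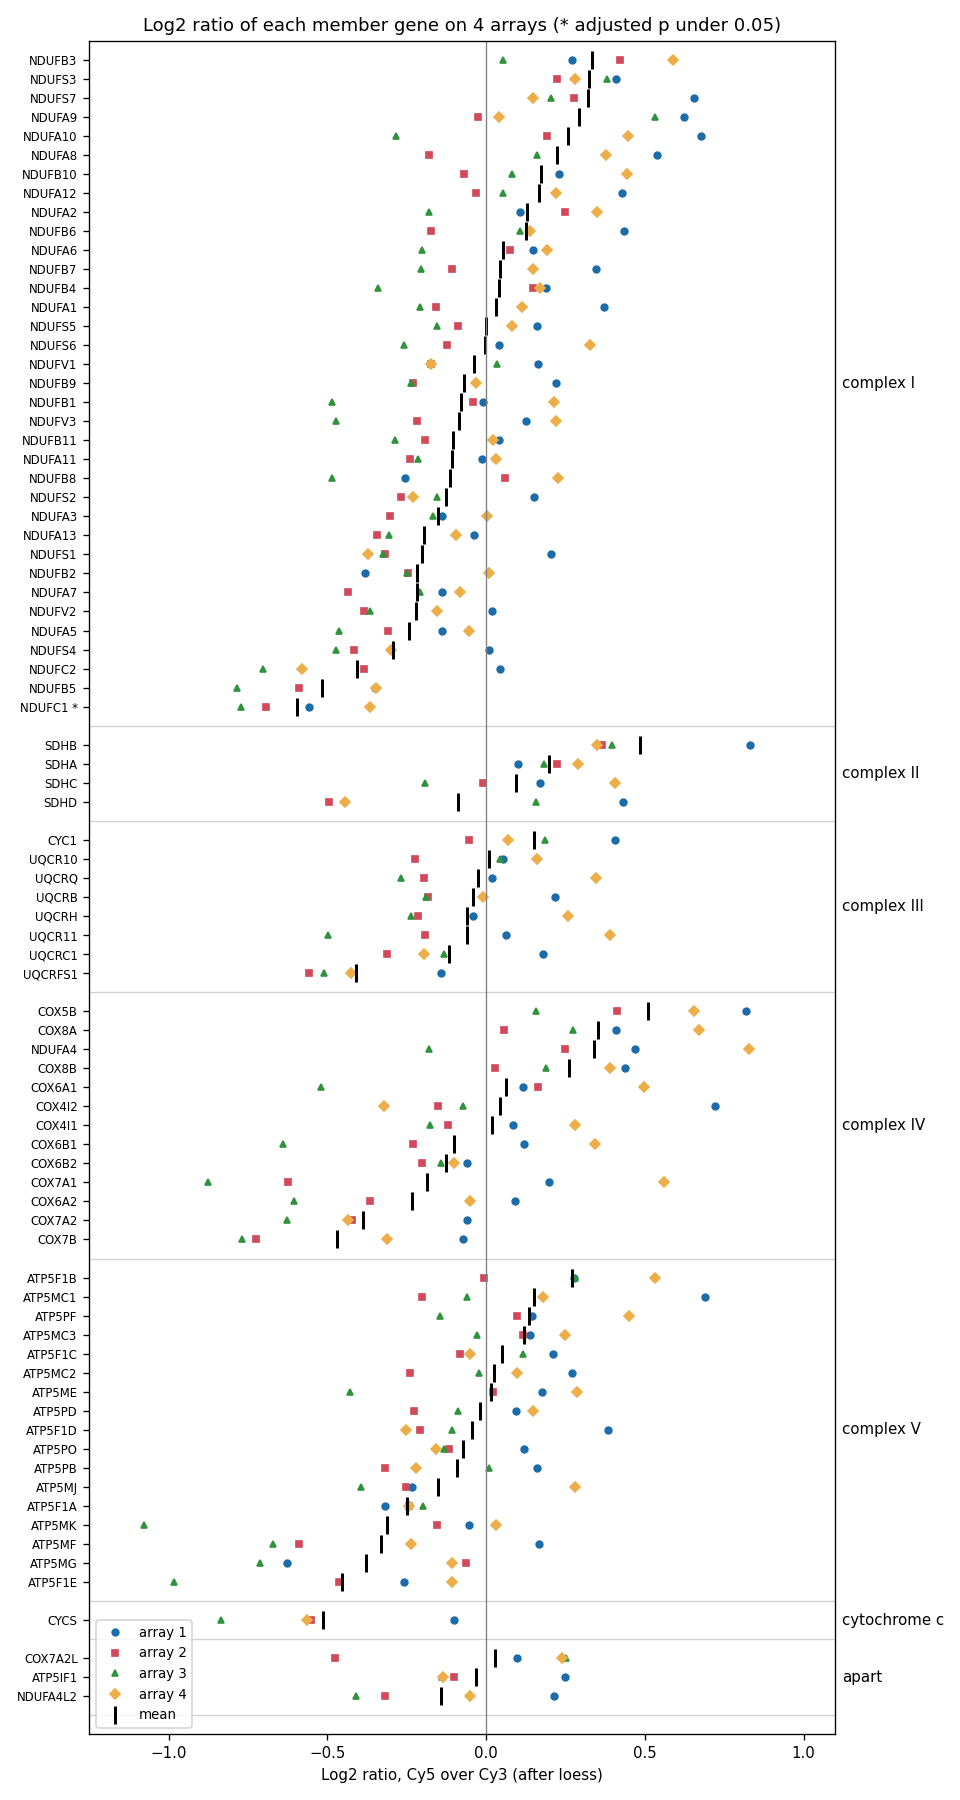
Log2 ratio of Cy5 over Cy3 (x axis, after loess) of the 81 member genes at their brightest probe, ordered by mean within each complex, with 1 symbol per array and a bar at the mean. *Ndufc1*, the gene with an asterisk, lay between -0.36 and -0.77 on the 4 arrays (its mean with median centring alone was 0.14), and for most other genes the arrays lay on both sides of 0.

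The sign of the group as a whole turned with the normalization of the arrays. With loess, which takes out any trend of the ratio with brightness, the median over the 170 member probes was -0.04 and over all 32606 tested probes 0.01. With each array only centred on its median, the tested probes had a median of 0.24 and the member probes one of 0.73. The member probes are bright, with 115 of 170 at a mean log2 intensity of 13 or more, and the 1603 tested probes of that brightness had a centred median of 0.80 and a loess median of -0.02. After centring alone, 65 of the 81 members were called higher and 0 lower in limma, against 45.0% of all genes in either direction, 43.7% higher and 1.25% lower. The members' bright probes had a centred median of 0.75, close to that of all bright probes. Every sign given below is the one after loess, and centring turned each negative mean of a complex or a named member gene positive. The regulators *esrra* and *ppargc1a*, the assembly factor *lyrm7*, the myosin light chain gene *myl3* and the collagen genes *col1a1* and *col3a1* kept their negative means with centring.

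**Figure D2:**
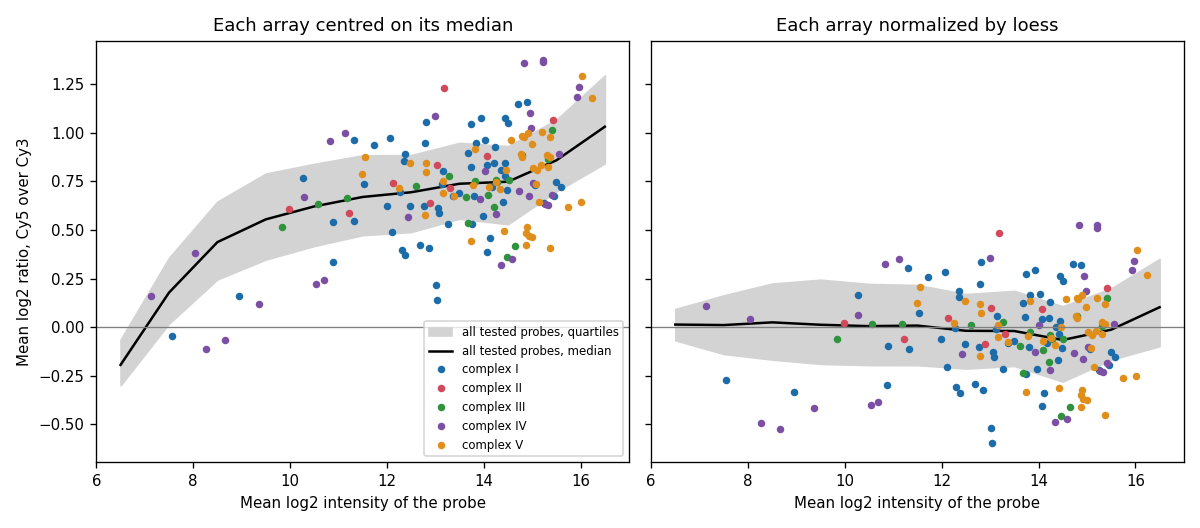
Mean log2 ratio of Cy5 over Cy3 (y axis) against mean log2 intensity (x axis) with each array centred on its median (left) and after loess (right). Points are member probes coloured by complex, and the line and band are the median and quartiles of all tested probes in steps of 1 log2 unit. The member probes, with medians of 0.73 on the left and -0.04 on the right, lay about the line of all probes in both panels.

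The median over the 81 members was 0.14, -0.19, -0.20 and 0.10 on arrays 1 to 4, and 60, 18, 21 and 49 members were above 0. Arrays 1 and 4 thus lay above 0 and arrays 2 and 3 below it. The median over all named genes, which the normalization sets near 0, was between 0.00 and 0.05 on the same arrays, and that over the 1603 bright probes between -0.04 and 0.00. Of the 9425 named genes 4973, 5127, 4730 and 5321 were above 0 on arrays 1 to 4. Complexes I, III, IV and V, which hold most of the members and so largely set the medians of the whole group, all had its pattern. Their medians on arrays 1 to 4 were 0.15, -0.17, -0.21 and 0.08 for complex I and 0.06, -0.21, -0.21 and 0.11 for complex III. They were 0.12, -0.15, -0.18 and 0.34 for complex IV and 0.14, -0.20, -0.13 and 0.03 for complex V. With each gene at its brightest probe, complex II was above 0 on all 4 arrays, at 0.30, 0.11, 0.17 and 0.32. Its median over the gene means was 0.15, but 0.06 when the probes of a gene were averaged (*sdha* 0.09 and *sdhc* 0.03). Its median exceeded that of complex I by 0.26 ± 0.0967 (SD, n = 4 arrays), that of complex III by 0.29 ± 0.0792 and that of complex V by 0.26 ± 0.0721, each on 4 of 4 arrays, and that of complex IV by 0.19 ± 0.159 on 3 of 4. The complex II value rests on 4 genes, and these differences are given as a description with no test. Each array holds a different pair of bulls, so that the pair, the array and the dye cannot be told apart, and in whole muscle a smaller share of a cell type and less RNA per cell cannot be told apart either.

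**Figure D3:**
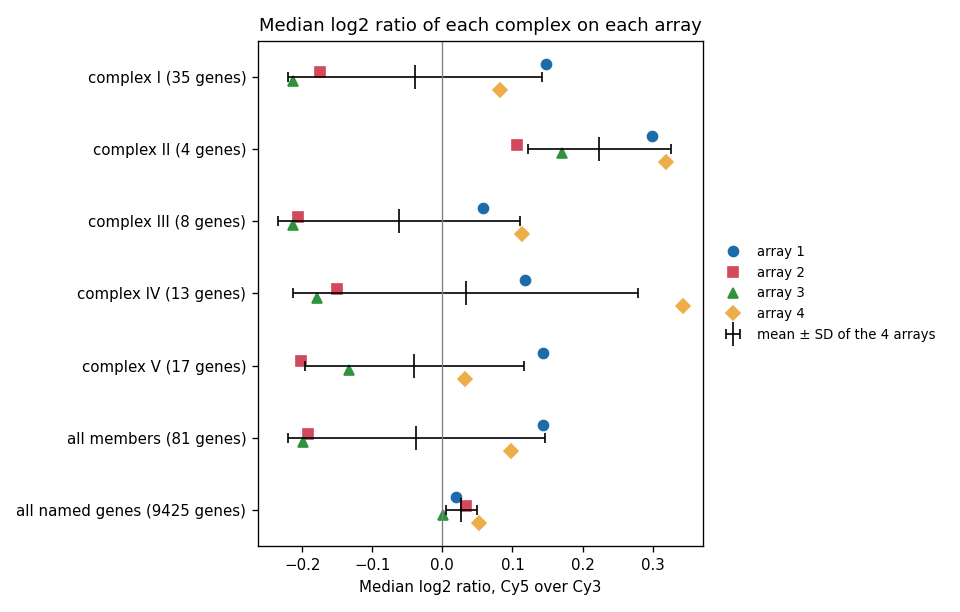
Median log2 ratio of Cy5 over Cy3 (x axis, after loess) over the genes of each complex, over all 81 members and over the 9425 named genes tested. Each gene is at its brightest probe, with 1 symbol per array and the mean ± SD of the 4 arrays. Complex II lay above 0 on every array (0.11 to 0.32) and the other complexes on arrays 1 and 4 only, whereas the median of each complex over the means of its genes was positive with median centring.

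Complex I held the called gene. *Ndufc1*, an accessory subunit of its membrane arm, was at -0.56, -0.69, -0.77 and -0.36 on arrays 1 to 4, a mean of -0.60 ± 0.178 (SD, n = 4), or 1.51-fold lower in Cy5 (adjusted p = 0.0419 from limma, mean 0.14 with median centring). It was below 0 on 4 of 4 arrays, yet its levels were 12.42, 12.79, 12.67 and 13.05 in Cy5 and 12.98, 13.49, 13.44 and 13.42 in Cy3 (log2 intensity), so that the channels overlapped across arrays, which were not scaled to each other. With 1 array left out the mean stayed at -0.54 to -0.67 with adjusted p of 0.0766 to 0.138, at a size where 2 to 36 of all 9425 genes were called. *Ndufb5*, another accessory subunit of the membrane arm, was at -0.35, -0.59, -0.79 and -0.35, a mean of -0.52 ± 0.211 (adjusted p = 0.0561), and *ndufc2* was at 0.04, -0.39, -0.70 and -0.58, a mean of -0.41 ± 0.326. Neither passed the adjusted threshold, and *ndufc2* was not below 0 on array 1. The upper end of the complex held *ndufb3*, also of the membrane arm, at a mean of 0.33 ± 0.227 (0.27, 0.42, 0.05 and 0.59) and a pair of core subunits of the peripheral arm. *Ndufs3* was at 0.41, 0.22, 0.38 and 0.28, a mean of 0.32 ± 0.0865 (adjusted p = 0.0744). *Ndufs7*, whose iron-sulphur cluster passes electrons to ubiquinone, was at 0.66, 0.28, 0.21 and 0.15, a mean of 0.32 ± 0.229. Both core subunits were above 0 on all arrays. The 6 core subunits measured had a median of -0.08 and the 29 accessory subunits one of -0.07, beside 0.02 over all named genes. On arrays 1 to 4 the medians were 0.18, -0.22, -0.06 and -0.16 for the core and 0.11, -0.17, -0.24 and 0.11 for the accessory subunits, with opposite signs on array 4.

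Complex II has a catalytic head of 2 subunits and 2 membrane anchors, whose values overlapped. *Sdhb*, the iron-sulphur subunit, was at 0.83, 0.36, 0.40 and 0.35, a mean of 0.49 ± 0.232 (adjusted p = 0.0665), and *sdha*, the flavoprotein that oxidizes succinate, was at 0.10, 0.22, 0.18 and 0.29, a mean of 0.20 ± 0.0789 (adjusted p = 0.180). At their brightest probes both were above 0 on 4 of 4 arrays without passing the threshold. The mean of *sdhb* leaned on array 1 and was 0.37 without it. The other 3 probes of *sdha* were at 0.10, 0.05 and 0.02, below its brightest probe. All 3 were below 0 on array 3 (-0.07, -0.14 and -0.16), and the last also on array 4 (-0.03). The anchors *sdhc* (0.17, -0.01, -0.19 and 0.41) and *sdhd* (0.43, -0.49, 0.16 and -0.44) had means of 0.09 ± 0.256 and -0.09 ± 0.455 and lay on both sides of 0, with both above *sdha* on array 1 and *sdhc* above both head subunits on array 4.

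In complex III the iron-sulphur and the haem subunit lay at opposite ends. *Uqcrfs1*, the Rieske iron-sulphur protein, was at -0.14, -0.56, -0.51 and -0.43, a mean of -0.41 ± 0.186 (adjusted p = 0.0734, and 0.42 with median centring), and its 3 probes gave -0.41, -0.46 and -0.24. *Cyc1*, which carries the haem of cytochrome c1, was at 0.41, -0.05, 0.18 and 0.07, a mean of 0.15 ± 0.196, with its other probes at 0.06 and 0.03. *Uqcrfs1* was below 0 on all 4 arrays and *cyc1*, at its brightest probe, above it on 3. *Uqcrc1*, a core protein, was at -0.12 ± 0.210 at its brightest probe and at 0.01, 0.02 and 0.02 at the others. At their brightest probes the 5 small subunits lay close together, from -0.06 (*uqcr11*) to 0.01 (*uqcr10*), with array 2 below 0 for all 5. The other probe of *uqcr10* was at -0.18 and below 0 on 4 of 4 arrays. Those of *uqcrb* and *uqcrq* were at -0.10 and -0.06, and that of *uqcrq* was above 0 on array 2 (0.24). *Cycs*, the gene of cytochrome c, the carrier between complexes III and IV, was at -0.10, -0.55, -0.83 and -0.57, a mean of -0.51 ± 0.304 (adjusted p = 0.0823, and 0.18 with median centring), and its other probe was at -0.31. It was below 0 on 4 of 4 arrays, least so on array 1.

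Complex IV had the widest spread of the complexes, from -0.47 to 0.51. *Cox5b*, a nuclear subunit on the matrix side, was at 0.82, 0.41, 0.16 and 0.65, a mean of 0.51 ± 0.288 (adjusted p = 0.0776), and its 3 probes agreed closely at 0.51, 0.52 and 0.53. It was above 0 on all 4 arrays by amounts that differed about as much as its mean. *Cox7b*, a small subunit of the membrane part, lay at the other end with -0.07, -0.72, -0.77 and -0.31, a mean of -0.47 ± 0.335 (adjusted p = 0.110, and 0.35 with median centring), and its 4 probes ran from -0.47 to -0.52. *Cox7a2* was at -0.06, -0.42, -0.63 and -0.43, a mean of -0.39 ± 0.236, with its 3 probes between -0.39 and -0.42. Both genes were below 0 on 4 of 4 arrays and nearest to 0 on array 1. *Ndufa4*, first assigned to complex I and now known as a subunit of complex IV, was at 0.47, 0.25, -0.18 and 0.83, a mean of 0.34 ± 0.421, and its probes were at 0.34, 0.29 and -0.14. Counting it with complex I changes only the complex it is placed in, so the number of members called, 1, could not change.

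Several subunits of complex IV come as isoforms, and the forms of heart and skeletal muscle lay on both sides of 0. *Cox7a1*, the form of heart and skeletal muscle, was at 0.20, -0.63, -0.88 and 0.56, a mean of -0.19 ± 0.676, which was the largest SD among the 81 members. Its partner in most other tissues, *cox7a2*, is given above, and on arrays 1 and 4 the pair had opposite signs. *Cox6a2*, the muscle form, was at a mean of -0.23 ± 0.313 and *cox6a1*, the form of most tissues, at 0.06 ± 0.425. *Cox8b* and *cox8a*, the corresponding pair for subunit 8, were both above 0 on all 4 arrays, at 0.26 ± 0.190 and 0.35 ± 0.257. The median of the 3 muscle forms was -0.19 and that of the 3 others 0.06, and the single pairs differed by less than the SD over the arrays in either member. The widely expressed *cox4i1* was at 0.02 ± 0.208 at its brightest probe. Its other probes were at 0.18, 0.01 and 0.35, the last above 0 on all 4 arrays. *Cox4i2*, a form known from lung, was at 0.04 ± 0.463, which rested on 0.72 on array 1. *Cox6b1* was at -0.10 ± 0.430 and *cox6b2*, known from testis, at -0.13 ± 0.0594, though its other probe was at 0.11. The mean log2 intensity of *cox6b2* was 13.93 at the brightest probe and 7.13 at the other. Whether both probes measure the same transcript was not tested.

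The genes of complex V are given by the place of their products in the enzyme. In the F1 part, where ATP is made, the β subunit gene *atp5f1b* was at 0.28, -0.01, 0.28 and 0.53, a mean of 0.27 ± 0.219 (adjusted p = 0.186), and its 5 probes ran from 0.13 to 0.40. The ε subunit gene *atp5f1e* was at -0.26, -0.46, -0.98 and -0.11, a mean of -0.45 ± 0.382 (adjusted p = 0.142, and 0.41 with median centring). The α subunit gene *atp5f1a*, picked after its values were seen for the smallest SD of all members, was at -0.32, -0.24, -0.20 and -0.24, a mean of -0.25 ± 0.0493 (adjusted p = 0.108), but its 6 probes ran from -0.26 to -0.02. The α and β genes, whose products alternate in the same ring, thus had opposite signs after loess, each with 1 sign at all of its probes, and both were positive with median centring. The 3 genes of the c ring, which turns as protons pass, all had means above 0, at a median of 0.12 with *atp5mc1* highest at 0.15 ± 0.391. On arrays 1 to 4 the medians of the c ring were 0.27, -0.20, -0.03 and 0.18, on both sides of 0. The 4 genes of the peripheral stalk had a median of -0.04, with *atp5pf* at 0.14 ± 0.244. The 5 small membrane subunits had a median of -0.31 (-0.05, -0.15, -0.67 and 0.03 on arrays 1 to 4), and 4 of them were below 0. Among these *atp5mg* was at -0.63, -0.06, -0.71 and -0.11, a mean of -0.38 ± 0.339 with its 4 probes between -0.32 and -0.38, and *atp5mf* at 0.17, -0.59, -0.67 and -0.24, a mean of -0.33 ± 0.382. With median centring their means were 0.47 and 0.44. None of the genes of complex V was called in limma after loess. Of its 17 genes 4 were among the 21 members with an unadjusted p under 0.05, a threshold that 28.3% of all genes passed.

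The 3 genes kept apart were close to 0. *Atp5if1*, the inhibitor that stops ATP synthase from running backwards, was at 0.25, -0.10, -0.14 and -0.14, a mean of -0.03 ± 0.189. *Cox7a2l*, which joins complexes III and IV into supercomplexes, was at 0.03 ± 0.342, and *ndufa4l2*, a relative of *ndufa4* known to respond to low oxygen, was at -0.14 ± 0.283 (0.81, 0.65 and 0.35 with median centring). None of them was called.

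Probes of the same gene had the same sign in most genes but not in all. Of the 51 members with at least 2 probes, 34 had 1 sign at every probe and 17 had both signs. The range over the probes of a gene had a median of 0.11, beside a median size of 0.14 for the log2 ratios of all members. It was below the SD over the arrays in 38 genes, but that SD is over pairs of bulls that the probes share. The largest range, 0.50, was that of *ndufs1*, picked after its values were seen, with 4 of its 5 probes at -0.20 to -0.33 and the fifth at 0.16. Among the genes that passed these thresholds with limma's p and have several probes, *uqcrfs1*, *cox5b*, *cox7a2*, *cox7b*, *atp5f1e* and *cycs*, every probe had the sign of the brightest probe. *Ndufc1*, *ndufb5*, *ndufc2* and *sdhb* had 1 probe each, so that their values have no such check. Over all probes 1 of 170 was called, against 3.32% of the 32606 tested.

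**Figure D4:**
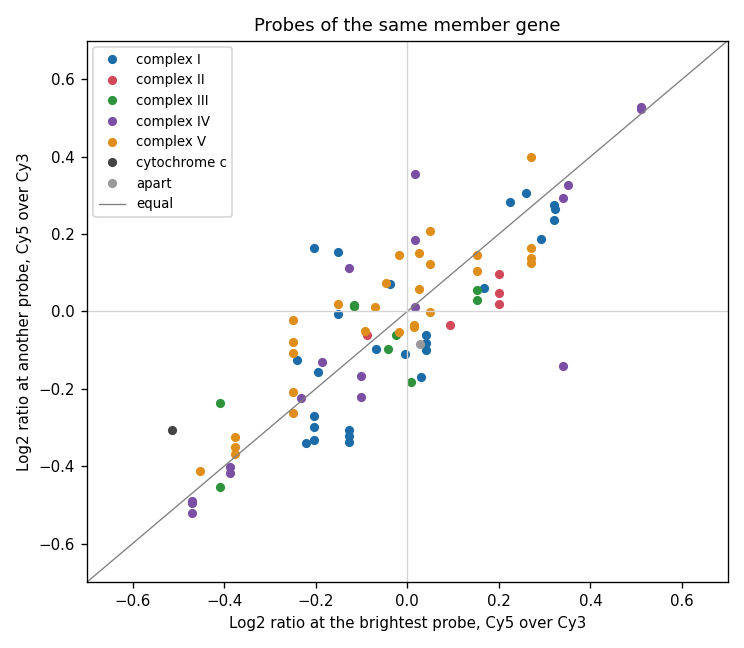
Mean log2 ratio of Cy5 over Cy3 at each further probe of a member gene (y axis) against that at the gene's brightest probe (x axis), after loess, coloured by complex, with the line of equal values. Most points lay near the line, with *cox5b* at the upper right (0.51 to 0.53) and *cox7b* at the lower left (-0.47 to -0.52), and a probe of *ndufa4* at -0.14 lay farthest below it (with median centring the brightest probes of all 3 genes were positive).

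Genes that work with the respiratory chain were taken from fixed lists. Of 16 listed genes of the tricarboxylic acid cycle and pyruvate dehydrogenase 14 were tested and 0 were called in limma (2 higher and 0 lower at an unadjusted p under 0.05, and 2 called higher by the separate-channel fit), with a median of 0.00. They ran from *sucla2* (0.10, -0.43, -0.46 and -0.31, a mean of -0.28) to *mdh2*, which makes NADH from malate (0.27, 0.33, 0.25 and 0.60, a mean of 0.36 ± 0.163, adjusted p = 0.0828). Their medians on arrays 1 to 4, 0.19, -0.05, -0.14 and 0.09, had the signs of the members' medians. The other probes of *mdh2* were at 0.13 and 0.17, and those of *sucla2* at -0.30, -0.22 and -0.08. The cycle gene *cs*, picked after its values were seen, was at -0.02 at its brightest probe. Its further probes were at -0.78 ± 0.841 and -0.90 ± 0.822 (adjusted p = 0.191 and 0.140 from limma). Of 49 listed assembly factors 32 were tested, 1 was called higher and 0 lower (5 and 2 at an unadjusted p under 0.05, and 3 and 1 by the separate-channel fit), with a median of 0.00. The called gene was *tmem70*, needed to build ATP synthase, at 0.57, 0.53, 0.51 and 0.50, a mean of 0.53 ± 0.0306 (adjusted p = 0.0331, above 0 on 4 of 4 arrays). The call was lost with plain background subtraction (adjusted p = 0.0608), with the scanner-processed ratios (0.0733) and with 1 array left out (0.0682 to 0.114), while the mean stayed at 0.51 to 0.54. *Lyrm7*, which handles the Rieske protein before it enters complex III, was lowest at -0.25, -0.78, -0.55 and -0.87, a mean of -0.61 ± 0.276 (adjusted p = 0.0555). It was below 0 on all 4 arrays, as was *uqcrfs1*, the gene of that protein. *Tmem70* and *lyrm7* had 1 tested probe each, so that their values have no check by a further probe.

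At the brightest probe of each gene, a pair of regulators of mitochondrial genes lay below every tested subunit, cycle gene and assembly factor. Of 18 listed, 14 were tested, 1 was called lower and 0 higher (4 and 0 at an unadjusted p under 0.05, and 1 and 0 by the separate-channel fit), and the median was -0.14. The called gene was *esrra*, a nuclear receptor that switches on respiratory genes, at -0.58, -1.66, -0.95 and -0.81, a mean of -1.0 ± 0.467 (adjusted p = 0.0486), with its other probe at -0.68. With median centring its mean was -0.35 and the call was lost (adjusted p = 0.147), as it was with 1 array left out (0.0659 to 0.128), where the mean was -0.78 to -1.14. *Ppargc1a*, the coactivator of that receptor, was at 0.38, -1.88, -1.23 and -1.73, a mean of -1.11 ± 1.04 (adjusted p = 0.142), and its 3 probes were at -1.11, -1.10 and -0.42. It was above 0 on array 1 and below it on the others, and without array 1 its mean was -1.61 with an adjusted p of 0.0462. *Ppard* was highest at 0.26 ± 0.784.

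**Figure D5:**
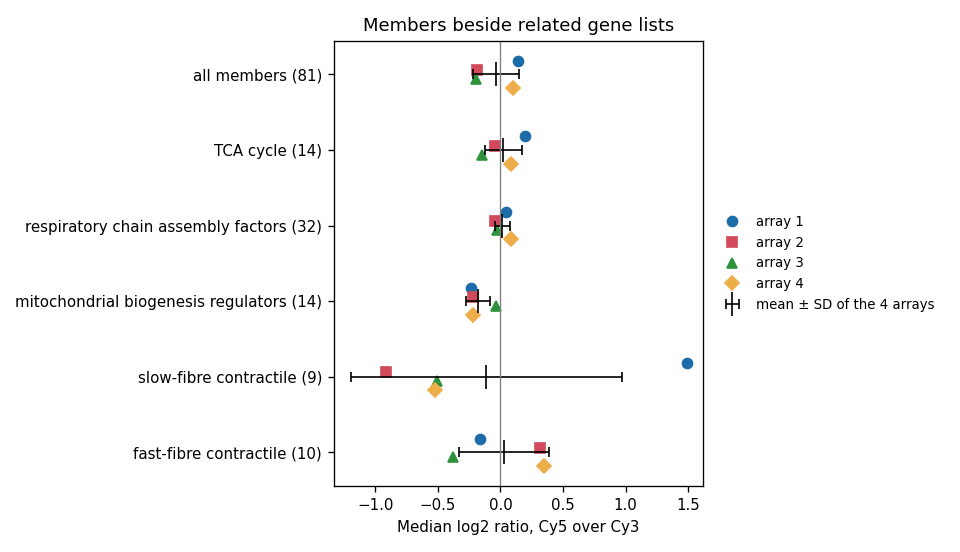
Median log2 ratio of Cy5 over Cy3 (x axis, after loess) over the 81 members and over lists of related genes (number of tested genes in brackets), with 1 symbol per array and the mean ± SD of the 4 arrays. The slow-fibre list spread from -0.91 on array 2 to 1.49 on array 1, far more than the members (-0.20 to 0.14), and the biogenesis regulators lay below 0 on every array, where with median centring the median of both was positive.

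Slow fibres hold more mitochondria than fast ones, so the fibre markers are given beside the subunits. Of 10 slow-fibre contractile genes 9 were tested, 1 was called lower and 0 higher in limma and in the separate-channel fit (1 and 0 at an unadjusted p under 0.05), and their median was 1.49 on array 1 and -0.91, -0.51 and -0.53 on arrays 2 to 4. The slow myosin gene *myh7* was at 2.16 on array 1 and -1.02, -0.04 and -0.25 on the others, whereas the called light chain gene *myl3* was at -0.82, -1.61, -2.29 and -1.28 (adjusted p = 0.0401, and 0.0755 with median centring, which ended the call). Of 14 fast-fibre genes 10 were tested and 0 were called in limma (2 higher and 3 lower at an unadjusted p under 0.05, and 2 called lower by the separate-channel fit), with medians of -0.16, 0.31, -0.38 and 0.35. The array medians of the subunits and of the slow-fibre genes had the same sign on arrays 1 to 3 and opposite signs on array 4, and the part of the fibre types in the subunits' values was not tested. Without array 1 the medians of complexes I to V were -0.10, 0.15, -0.08, -0.15 and -0.12.

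Markers of skeletal muscle were present, with 7 of 8 listed genes tested and 0 called in limma (3 higher and 1 lower at an unadjusted p under 0.05, and 3 called higher by the separate-channel fit). Their summed intensity per array was 1031140 to 1461660 in Cy5 and 800751 to 1222290 in Cy3. Of the markers of other cell types, 7 of 7 fibroblast genes were tested and 2 were called lower and 0 higher in limma, *col1a1* at -2.05 and *col3a1* at -1.68 (4 and 0 at an unadjusted p under 0.05, and 3 and 0 by the separate-channel fit). Of the other fibroblast genes *col1a2* was at -1.34 and *lum* at -0.77, and *pdgfra* was at 0.49, *dcn* at 0.42 and *thy1* at 0.30. The list had summed intensities of 32867 to 77524 in Cy5 and 52853 to 135486 in Cy3. In 6 of 7 listed adipocyte, 6 of 7 endothelial, 6 of 7 macrophage and 5 of 6 blood genes that were tested, 0 were called in limma. At an unadjusted p under 0.05 limma passed 1 adipocyte gene lower, 3 macrophage genes higher, and 0 endothelial and 0 blood genes, and the separate-channel fit called 1 macrophage gene higher and 0 in the other 3 lists. Their summed intensities were 659 to 1110 in Cy5 and 703 to 3584 in Cy3 for adipocytes, and 17058 to 22692 and 16823 to 23468 for blood. They were 3991 to 7942 and 3062 to 5351 for endothelial cells and 1867 to 4346 and 1610 to 2556 for macrophages. The part of these cells in the subunits' values was not tested.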

How the data were processed

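The files deposited for each array hold the scanner's intensity values. Feature Extraction 10.7.3.1 of Agilent, per the file headers, had measured a median signal and a median local background for every spot. The log10 values deposited as a series table are the scanner's own log10 ratios of Cy5 over Cy3 (largest difference 0, median 0 on every array), of which 7.41% to 12.2% per array had been set to 0. GeneSpring is the statistics program of the methods, and the normalization is not given in the sources used here.

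Median signals were background-corrected by normexp (offset 50) and normalized within arrays by loess, in which control spots had weight 0. Between 7 and 14 spots per array with an outlier mark were dropped, and repeated spots of a probe were averaged. A probe was tested if 1 channel was well above background on all 4 arrays and at least 3 arrays gave a value, which held for 32606 of 43653. The log2 ratios were set against 0, two-sided, by lmFit and eBayes (limma 3.58.1, R 4.3.3, statmod 1.5.0; plots by matplotlib 3.10.9), adjusted by Benjamini-Hochberg over all tested probes and called at an adjusted p under 0.05. Each gene was taken at its brightest probe. Accessions gave RefSeq symbols for 23492 probes. The arrays are 4 biological replicates of 1 group.

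The members, the gene lists and the tests were chosen with earlier results of these data known. Named genes were the members called at any probe, the 3 highest and the 3 lowest genes of each complex, cytochrome c and c1, the isoform pairs of complex IV, the 3 genes kept apart, and the called, highest and lowest genes of each related list. Other genes named are said to be picked after their values were seen or are listed cell markers. Alternatives to the background step (none, or plain subtraction), the signals (scanner-processed), the normalization (median centring), the dim-probe filter (none, or both channels), the choice of probe (mean of all), the variance prior (trend and robust), the test (the methods' t-test, or a separate-channel fit), the fold threshold (none), the place of *ndufa4* (complex I) and the arrays (each left out) were run. The procedure was tested on simulated data. Promoter and protein sequences and the LIM arrays were not analysed here.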

Additional observations from a re-analysis of the deposited data

Results flagged for a closer look

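A single array stood apart from the other 3 for 2 of the 51 results examined. For *sdhb*, the iron-sulphur subunit of complex II, array 1 was at 0.83 and the nearest other array at 0.40, a gap of 0.899 of the whole range. For *atp5if1*, the inhibitor of ATP synthase, array 1 was at 0.25 and the nearest other array at -0.10, a gap of 0.903 of the range. Both gaps exceed Dixon's critical value, which chance alone passes in about 1 group of 20, and 2 of 51 is no more than that share. Array 1 was also the array on which the slow-fibre markers were high, with a median log2 ratio of 1.49, and the part of the fibre types in these values was not tested.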

How the results depend on the processing

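Shares in brackets are those of all genes called. The number of members called was 1 in limma (4.46%, *ndufc1*). It was also 1 (*ndufc1*) with no background correction (5.44%), no filter (3.21%), a stricter filter (5.89%) and a trend and robust prior (6.15%). It was 0 with plain background subtraction (5.07%), with the scanner-processed log ratios (4.15%) and with the methods' t-test (0%), 2 when the probes of a gene were averaged (5.19%, *ndufb5* and *ndufc1*), 7 with the separate-channel fit (12.1%, *cox5b*, *ndufs3* and *sdhb* higher, *uqcrfs1*, *cox7b*, *ndufc1* and *ndufb5* lower) and 65, all higher, with median centring (45.0%). Leaving out each array in turn gave 0 to 0 members, while 36, 12, 3 and 2 of all 9425 genes were called without arrays 1 to 4. At the study's thresholds with limma's p the count was 10, where 17.8% of all genes passed, and the brackets that follow give that share. It was 7 with the study's own kind of test, the methods' t-test (11.3%), 70 with median centring (53.9%) and 21 with no fold threshold (28.3%). Otherwise it was 8 to 11 (13.1% to 24.6%). With median centring the medians of complexes I to V were 0.73, 0.98, 0.75, 0.68 and 0.73, and in the other alternatives they stayed within the SD of the array medians, the median of complex II being lowest, at 0.06, when the probes of a gene were averaged. That centring leaves the trend of the ratio with brightness in place follows from its construction.

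Median centring also turned the sign of *atp5f1e* (0.41), *atp5if1* (0.81), *atp5mf* (0.44), *atp5mg* (0.47), *cox6a2* (0.63), *cox6b1* (0.74), *cox6b2* (0.66), *cox7a1* (0.68), *cox7a2* (0.24), *cox7b* (0.35), *cycs* (0.18), *ndufa4l2* (0.35), *ndufb5* (0.22), *ndufc1* (0.14), *ndufc2* (0.39), *sdhd* (0.64), *sucla2* (0.43), *uqcr11* (0.75), *uqcrc1* (0.68), *uqcrfs1* (0.42) and *uqcrq* (0.75). Averaging the probes of a gene turned *cox7a2l* (-0.028) and *uqcr10* (-0.087), and the scanner-processed ratios turned *cox7a2l* (-0.030), *uqcr11* (0.0029) and *uqcrq* (0.0051). Leaving out 1 array gave both signs for genes near 0, with ranges of -0.13 to 0.0040 (*atp5if1*), -0.028 to 0.27 (*atp5mc1*), -0.071 to 0.082 (*cox4i1*), -0.18 to 0.17 (*cox4i2*), -0.081 to 0.26 (*cox6a1*), -0.25 to 0.078 (*cox6b1*), -0.43 to 0.044 (*cox7a1*), -0.047 to 0.20 (*cox7a2l*), -0.058 to 0.49 (*ppard*), -0.011 to 0.19 (*sdhc*), -0.26 to 0.048 (*sdhd*), -0.042 to 0.086 (*uqcr10*), -0.21 to 0.087 (*uqcr11*) and -0.15 to 0.056 (*uqcrq*). The cause of these changes was not tested.

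The log2 ratio on an array sets a HER bull against an HF bull, so that the test of these ratios was already paired by array. No further pairing was possible because the arrays form 1 group. Changes smaller than the spread over 4 arrays could not be detected, and the signal was no limit for the members, all of which were well above background.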
